A study of Mus musculus with 2 samples.

Results

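The cells described here are the immune cells of embryonic mouse hearts, taken as every cell named immune in the part of the authors' annotation used here. The copy of that table ended inside a row, so its remaining cells were not analysed here. In the part used, 289 of 4546 cells were immune, and the 2 droplet libraries of the series held 13246 cells in all. The immune population of a fetal heart consists mostly of macrophages, phagocytes that derive from the yolk sac and the fetal liver and clear dying cells, with smaller numbers of monocytes and other blood-derived leukocytes. Cardiac macrophages are known to sit among fibroblasts, vessels and the conduction system. Genes such as Ptprc (the pan-leukocyte surface phosphatase CD45), C1qa (a complement component made by macrophages), Lyz2 (lysozyme of myeloid cells) and Fcgr1 (an antibody receptor of macrophages) mark these cells. No gene values were analysed here, so none of these markers was examined, and the name rests on the authors' annotation.

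The series set hearts with genetically ablated fibroblasts against control hearts at E16.5 and E18.5. Ablated hearts were Pdgfra-CreER+/-;Rosa-DTA+/-, in which an inducible Cre driven from the Pdgfra locus switches on diphtheria toxin fragment A. Control hearts were Rosa-DTA+/-, so both groups carried the toxin allele, and the presence of the recombinase and the loss of fibroblasts cannot be told apart. Pdgfra also marks some cells other than fibroblasts. When the recombinase was induced, and whether a barcoded sample was 1 heart or several, is not given in the sources used here. A MULTI-seq barcode, a DNA tag that records the sample of origin, had been attached to the cells of each sample, and 4 barcoded samples were pooled into each library.

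The part of the annotation used here covered cells of pool 1 alone. Pool 2 held a second barcoded sample of every stage and condition, whose immune cells were not analysed here. The immune cells described thus came from 1 barcoded sample for each stage and condition, with 79 cells in the E16.5 control, 45 in the E16.5 ablated, 44 in the E18.5 control and 121 in the E18.5 ablated sample. Within a stage there was no test of a difference between conditions, and the 95% exact (Clopper-Pearson) intervals given for shares cover counting error only. The total UMI count (distinct tagged transcripts) per barcoded sample of both pools ranged from 9225383 to 49416483. Of the 7251 cell barcodes of pool 1, 19 also occurred among the 5995 of pool 2, and 3 of these belonged to immune cells.

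The immune label matched the grouping of cells that the authors had made within pool 1 alone. Of the 289 immune cells, 283 lay in pool cluster 6, where 283 of 284 named cells were immune. The other 6 were spread over pool clusters 0, 5 and 11, which held 2, 1 and 3 immune cells among 714, 374 and 161 named cells. A further 160 cells of pool cluster 6 had no name in the table used here. Their median was 6425.5 UMIs and 2535 genes per cell, against 6247.5 UMIs and 2327.5 genes in the 284 named cells of that cluster.

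Ablated samples had a higher immune share than controls at either stage, and the share was higher at E18.5 than at E16.5 in both conditions. At E16.5 it was 3.24% of 2435 named cells in the control (2.58 to 4.03) and 6.77% of 665 in the ablated sample (4.98 to 8.95), a ratio of 2.09. At E18.5 it was 7.60% of 579 cells (5.58 to 10.1) and 14.0% of 867 cells (11.7 to 16.4), a ratio of 1.84. With all named cells as the denominator, the intervals of the control and ablated sample did not overlap at either stage. Averaged over stages, the difference was 4.94 percentage points, and it was above 0 in 2 of 2 stages. The two-sided exact permutation test with condition permuted within stage gave p = 0.5, the smallest p that its 4 reassignments allow.

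The cells without a name gave a second count from the same 4 samples and the same library. Pool cluster 6 made up 47 of 1479 unnamed cells of the E16.5 control, or 3.18% (2.34 to 4.20), and 33 of 405 of the E16.5 ablated sample, or 8.15% (5.68 to 11.3). At E18.5 it made up 25 of 344 control cells, or 7.27% (4.76 to 10.5), and 55 of 477 ablated cells, or 11.5% (8.81 to 14.7). The earlier ablated sample exceeded its control by 4.97 points (2.29 to 8.19) and the later one by 4.26 points (0.0033 to 8.34), so the lower limit at the later stage lay next to 0. Over all 7251 cells of pool 1 the cluster held 127, 77, 69 and 171 cells in the same order of samples. The differences there were 3.95 points (2.36 to 5.75) and 5.25 points (2.68 to 7.74). Being the same hearts, these cells say nothing of the spread between hearts.

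**Figure D1:**
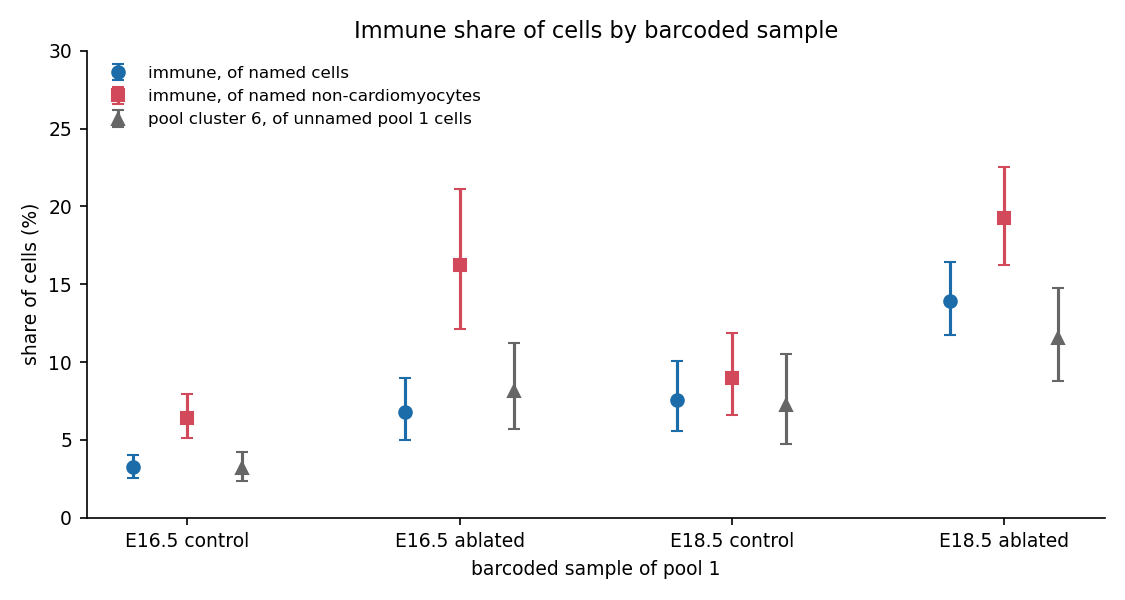
Share of cells (%) in each barcoded sample of pool 1, with 95% exact binomial intervals as bars. Circles give immune cells among all named cells (3.24, 6.77, 7.60 and 14.0%), squares immune cells among named non-cardiomyocytes, and triangles pool cluster 6 among cells without a name; each symbol is higher for the ablated sample than for the control of its stage.

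A share depends on the other cells of the sample, so the immune cells were also counted against each other type. Against fibroblasts, the targets of the ablation, immune cells numbered 15.4 per 100 in the E16.5 control, 53.6 in the E16.5 ablated, 16.48 in the E18.5 control and 46.0 in the E18.5 ablated sample. Both controls were thus near each other on this scale, and both ablated samples lay above them by ratios of 3.48 and 2.79. These ratios also hold the lower number of fibroblasts, whose share in the ablated sample was 0.600 and 0.658 times that of the control. Against mural cells, the pericytes and smooth muscle of vessels, there were 55.6 immune cells per 100 in the earlier control, 250.0 in the earlier ablated, 68.8 in the later control and 295.1 in the later ablated sample. The ratio of ablated to control was 4.49 and 4.29. Mural cells were themselves a smaller share of the ablated samples, 0.464 and 0.428 times that of the control, which raises this ratio. Against vascular endothelial cells, which line the vessels, the ratio was 2.90 at the earlier stage and 1.68 at the later. Against endocardial cells, which line the chambers, it was 1.76 and 2.53.

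For the other 3 types the ratio went in opposite directions at the 2 stages. Per 100 ventricular cardiomyocytes, the muscle of the main pumping chambers, the E16.5 control had 7.10 immune cells and the E16.5 ablated sample 14.0, while the E18.5 control had 89.8 and its ablated counterpart 59.3. Per 100 epicardial cells, which cover the heart's surface, the controls had 123.4 and 338.5 from the earlier to the later stage and the ablated samples 236.8 and 201.7, and the later control had 13 epicardial cells in all. Per 100 atrial cardiomyocytes the controls had 84.9 and 112.8 and the ablated samples 67.2 and 355.9. Across the 7 types, the immune cells were more numerous per cell of the other type in the ablated sample for 6 at E16.5 (ratios 0.791 to 4.49) and for 5 at E18.5 (0.596 to 4.29). The same counts can be put as ranks of the ratio of ablated to control shares among all 8 types. Immune cells then ranked 2nd at E16.5, after atrial cardiomyocytes, and 3rd at E18.5, after epicardial cells and ventricular cardiomyocytes.

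The difference between stages depended on the denominator. Among all named cells the immune share was 4.35 points higher at E18.5 than at E16.5 in controls (2.19 to 6.91) and 7.19 points higher in ablated samples (4.06 to 10.3). Among non-cardiomyocyte cells it was 6.43% and 8.96% in the controls, a difference of 2.53 points whose interval held 0 (-0.286 to 5.70). In the ablated samples it was 16.2% and 19.2%, a difference of 2.99 points (-2.74 to 8.29). Among cells that were neither cardiomyocytes nor fibroblasts the differences were 8.61 points (3.01 to 14.8) and 9.74 points (1.57 to 17.4). Cardiomyocytes numbered 1206 in the E16.5 control and 88 in the E18.5 control. Each stage was a single sample per condition, so stage and sample cannot be told apart.

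The immune cells fell into 6 of the 40 integrated clusters, numbers 12, 14, 26, 34, 35 and 37. Each was made up of named immune cells only, but all 40 clusters held cells of 1 type name. This is thus no trait of the immune clusters. Cluster 12 held 114 cells and cluster 14 held 94, together most of the population. Clusters 37, 34 and 26 held 29, 24 and 23 cells, and cluster 35 held 5. The genes behind these clusters were not analysed here, so none is given a cell type of its own.

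The 6 clusters differed widely in how much RNA was captured per cell. Cluster 12 had a median of 5297.5 UMIs (quartiles 4405.5 and 6944.25) and 2163.5 genes. Cluster 14 had 8689 UMIs (6185 and 12428.5) and 2988.5 genes. Cluster 26 was the deepest, with 14678 UMIs, 4333 genes and the widest spread, its quartiles lying at 4067 and 23265 UMIs. Its mitochondrial percent, the portion of UMIs from mitochondrial genes, was also the highest of the 6, with a median of 2.95% and a maximum of 22.6%. Cluster 34 had 5040.5 UMIs and 2117.5 genes.

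Clusters 37 and 35 stood at the low end of the whole annotation. Cluster 37 had a median of 3766 UMIs and 1201 genes per cell, the 2nd lowest of the 40 clusters on both measures, and a mitochondrial percent of 0.620%, the 3rd lowest. Cluster 35 had 1055 UMIs and 656 genes, the lowest of the 40 on both, and its cells had 0.119 times the median UMI count of their own samples. None of its 5 cells lay in pool cluster 6: 2 were in pool cluster 0, where 710 of 714 named cells were ventricular cardiomyocytes, and 3 in pool cluster 11, where 156 of 161 were epicardial. The grouping within the pool thus went against the immune name for these 5 cells. Doublets were not called, because that needs gene values. The part of depth and of mixed droplets in clusters 26 and 35 was not tested. Without these clusters the immune share was 2.93 points above the control in the earlier ablated sample and 6.04 points in the later. This could change little at the later stage. As shares of all named cells there, clusters 26 and 35 differed by -0.0568 and 0.461 points, ablated minus control. Clusters 34 and 37, also of low UMI count, differed by 1.67 and 1.39 points there and were kept in.

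**Figure D2:**
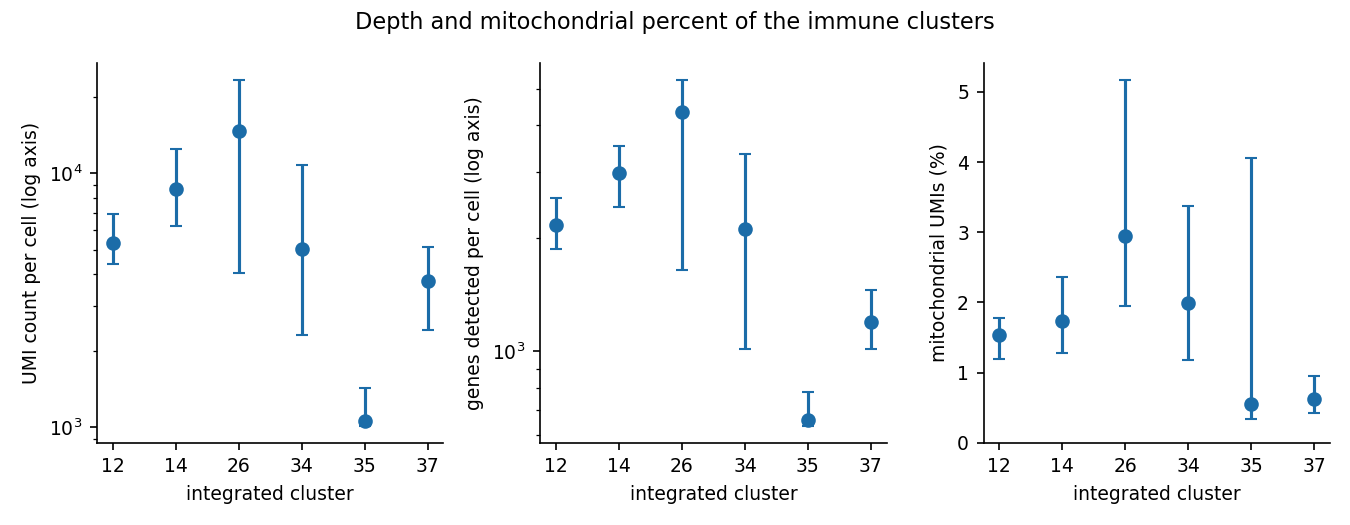
Median UMI count, detected genes (both on log axes) and mitochondrial UMIs (%) per cell in the 6 integrated clusters of immune cells over all 4 samples, with bars from the lower to the upper quartile. Cluster 26 is the highest on each measure with a median of 14678 UMIs, and cluster 35, of 5 cells, has the lowest UMI count and gene number.

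Cluster 37 was a larger part of the immune cells at E18.5 than at E16.5 in both conditions. It was 1 of 79 immune cells in the E16.5 control and 1 of 45 in the E16.5 ablated sample, or 1.27% and 2.22%. At E18.5 it was 6 of 44 and 21 of 121, or 13.6% (5.17 to 27.4) and 17.4% (11.1 to 25.3). The difference between stages was 12.4 points in controls (2.23 to 26.1) and 15.1 points in ablated samples (3.71 to 23.4). Ablated minus control, it differed by 0.956 points (-5.03 to 10.6) at the earlier and 3.72 (-11.4 to 15.3) at the later stage.

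Cluster 14 had the opposite order. It was 39 of 79 cells (49.4%) and 19 of 45 (42.2%) in the control and ablated sample of E16.5, and 15 of 44 (34.1%) and 21 of 121 (17.4%) at E18.5. The difference between stages was -15.3 points in controls, with an interval that held 0 (-33.1 to 4.26), and -24.9 points in ablated samples (-41.7 to -8.28). Ablated minus control, it was -7.14 points (-25.7 to 12.2) at the earlier and -16.7 points (-33.8 to -0.987) at the later stage. The latter was the only 1 of the 12 condition differences, 6 clusters at 2 stages, whose interval left out 0, and without the cells of lowest UMI count the difference was -18.0 points with a wider interval that held 0 (-38.1 to 1.64). Cluster 26 made up 12.7% of the control and 13.3% of the ablated immune cells at the earlier stage, and 6.82% and 3.31% at the later.

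Cluster 12 was the largest in the E18.5 samples, with 19 of 44 cells (43.2%) in the control and 55 of 121 (45.5%) in the ablated sample, against 24 of 79 (30.4%) and 16 of 45 (35.6%) at E16.5. All 4 intervals of cluster 12 overlapped. Cluster 34 was 5 of 79 and 2 of 45 cells at E16.5. At E18.5 it was 1 of 44 in the control and 16 of 121 in the ablated sample, a difference of 10.95 points whose interval reached just below 0 (-0.231 to 18.6). Cluster 35 had 0 of 79 and 0 of 44 control cells, with upper limits of the exact intervals at 4.56% and 8.04%. It had 1 of 45 and 4 of 121 ablated cells. A cluster share can differ because cells are more numerous or because they are placed in another cluster, and these cannot be told apart without gene values.

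**Figure D3:**
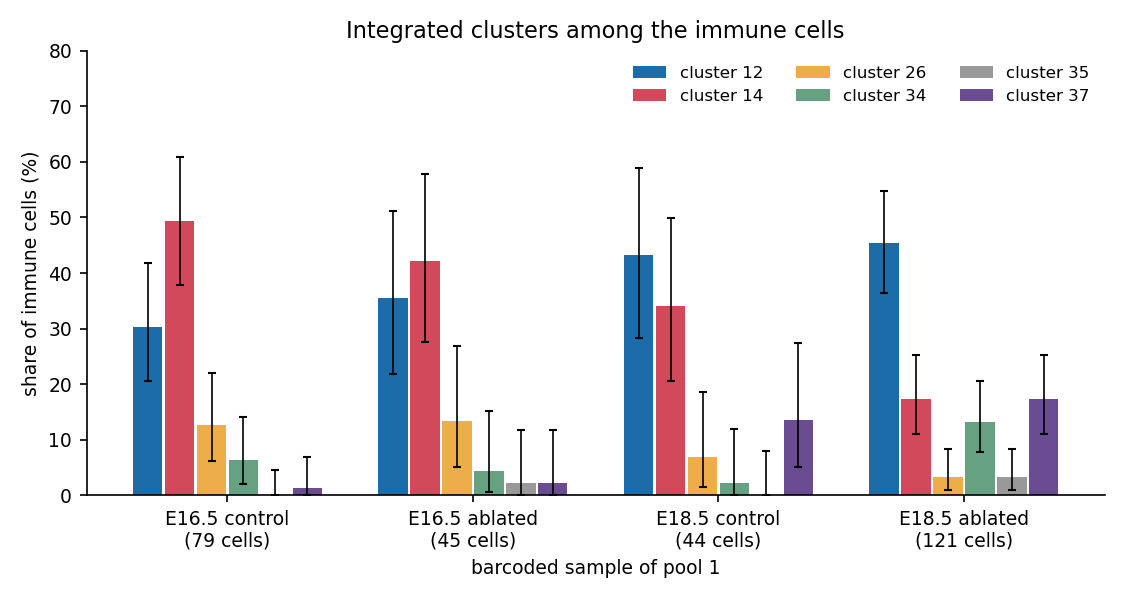
Share of the immune cells (%) in each integrated cluster for the 4 barcoded samples of pool 1, with 95% exact binomial intervals as bars. Cluster 14 goes from 49.4% in the E16.5 control to 17.4% in the E18.5 ablated sample, and cluster 37 from 1.27% to 17.4%.

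As shares of all named cells, the clusters split the difference in immune cells into its parts. Cluster 12 was 0.986% of the E16.5 control and 2.41% of the E16.5 ablated sample, 1.42 points more (0.290 to 2.93). In the E18.5 samples it was 3.28% and 6.34%, or 3.06 points more (0.704 to 5.31). Cluster 14 was 1.60% and 2.86% of the E16.5 samples, 1.26 points more in the ablated one (-0.0139 to 2.89), and 2.59% and 2.42% of the E18.5 samples, where the ablated minus control value was -0.169 points (-2.05 to 1.52). Cluster 34 was 0.205% and 0.301% of the E16.5 samples. Of the E18.5 samples it was 0.173% and 1.85%, or 1.67 points more (0.561 to 2.82). Cluster 37 was 1.04% and 2.42% of the E18.5 samples, 1.39 points apart (-0.129 to 2.80). Of the 6.36 points by which the immune share differed at E18.5, cluster 12 thus held 3.06, cluster 34 held 1.67 and cluster 37 held 1.39.

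Immune cells carried fewer UMIs and fewer detected genes than most other types of the same sample. Their median UMI count was 8190 in the E16.5 control, 7684 in the E16.5 ablated, 5707 in the E18.5 control and 4783 in the E18.5 ablated sample. It was below that of 6 of the 7 other types in 4 of 4 samples, and the same held for detected genes. The mean log2 ratio of medians, immune over other, lay between -0.42 against endocardial cells and -0.75 against mural cells for UMI counts. Without the cells of lowest UMI count the vascular endothelial comparison of UMI counts, and without those of highest UMI count the ventricular cardiomyocyte comparison of genes, no longer kept 1 direction (p = 0.25 in each exact permutation test). For mural cells the UMI ratio was -0.75 ± 0.12 (SD, n = 4 samples; two-sided exact sign-flip permutation test, p = 0.125, adjusted p = 0.184), or 1.68-fold fewer UMIs. The exception was atrial cardiomyocytes, below which immune cells lay in 3 of 4 samples (mean -0.59 ± 0.69). The smallest p of this test with 4 samples is 0.125, so none of the 28 comparisons, 7 types by 4 measures, could pass 0.05. These SDs span both stages and both conditions.

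The median number of detected genes in immune cells was 2950, 2766, 2309 and 1893 in the same order of samples. Against fibroblasts the mean log2 ratio of medians was -0.56 ± 0.25, and against ventricular cardiomyocytes it was -0.38 ± 0.39 (both n = 4, lower in 4 of 4 samples, exact sign-flip permutation p = 0.125, adjusted p = 0.184). Genes per 1000 UMIs, as a median over cells, was 371.4 in immune cells and between 307.7 and 381.0 in the other types. This ratio itself varies with depth, so it does not adjust for the lower UMI count. At similar median UMI counts the gene numbers differed in both directions. Immune cells of the E16.5 control had 8190 UMIs and 2950 genes. Endocardial cells of the E18.5 ablated sample had 8245 and 3363, and ventricular cardiomyocytes of the E16.5 ablated sample 8568 and 2869. How far depth accounts for the lower gene number was not tested.

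The mitochondrial percent of immune cells was low and close to that of the other non-muscle cells. The controls had medians of 1.72% and 1.55% from the earlier to the later stage, and the ablated samples 1.73% and 1.37%. Immune minus ventricular cardiomyocyte, the difference of medians was -8.34 ± 1.42 points, and immune minus atrial cardiomyocyte it was -6.63 ± 4.26 points (n = 4, lower in 4 of 4 samples, exact sign-flip permutation p = 0.125, adjusted p = 0.184). Cardiomyocytes are rich in mitochondria. Immune minus endocardial, it was -0.702 ± 0.0920 points, also lower in 4 of 4 samples with the same p, but not in 1 direction with means (-0.533, exact permutation p = 0.25). Against fibroblasts, mural, vascular endothelial and epicardial cells the mean differences lay between -0.149 and 0.0627 points and did not keep 1 direction over the samples.

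The UMI count of immune cells was lower at E18.5 than at E16.5 in both conditions and in both of the larger clusters. In cluster 12 the median was 7058.5 UMIs in the E16.5 control, 5884.5 in the E16.5 ablated, 5088 in the E18.5 control and 4943 in the E18.5 ablated sample. In cluster 14 it was 8803, 9053, 7696 and 8451 UMIs. Both E18.5 medians lay below both E16.5 medians in either cluster, by less in cluster 14. Every other non-muscle type also had a lower median UMI count at E18.5 in both conditions, so this was not particular to immune cells. The medians of vascular endothelial cells were 13804.5 and 6284.5 in the controls and 13042.5 and 6949 in the ablated samples, earlier stage first. For fibroblasts they were 11776 and 9264 in the controls and 9538.5 and 9515 in the ablated samples. Among ventricular cardiomyocytes the order was reversed, 9892 and 12175 in the controls and 8568 and 13077.5 in the ablated samples.

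Median depth of the immune cells was lower in the ablated sample than in the control at both stages. The ablated minus control difference of medians was -506 UMIs and -184 genes at the earlier stage, and -924 UMIs and -416 genes at the later. Over all cells of a sample, the median was 8873 UMIs in the E16.5 ablated sample against 10332 in its control. At E18.5 it was 8980.5 against 8848. In cluster 14 the immune median was higher in the ablated sample at both stages, 9053 against 8803 and 8451 against 7696 UMIs. In cluster 12 it was lower at both, 5884.5 against 7058.5 and 4943 against 5088 UMIs. The cause was not tested. The E18.5 ablated sample held more cells of the shallow clusters 34, 35 and 37, which made up 41 of its 121 immune cells against 7 of 44 in the control. With means in place of medians, the UMI difference turned to 226.04 at the earlier stage and was -1626 at the later.

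**Figure D4:**
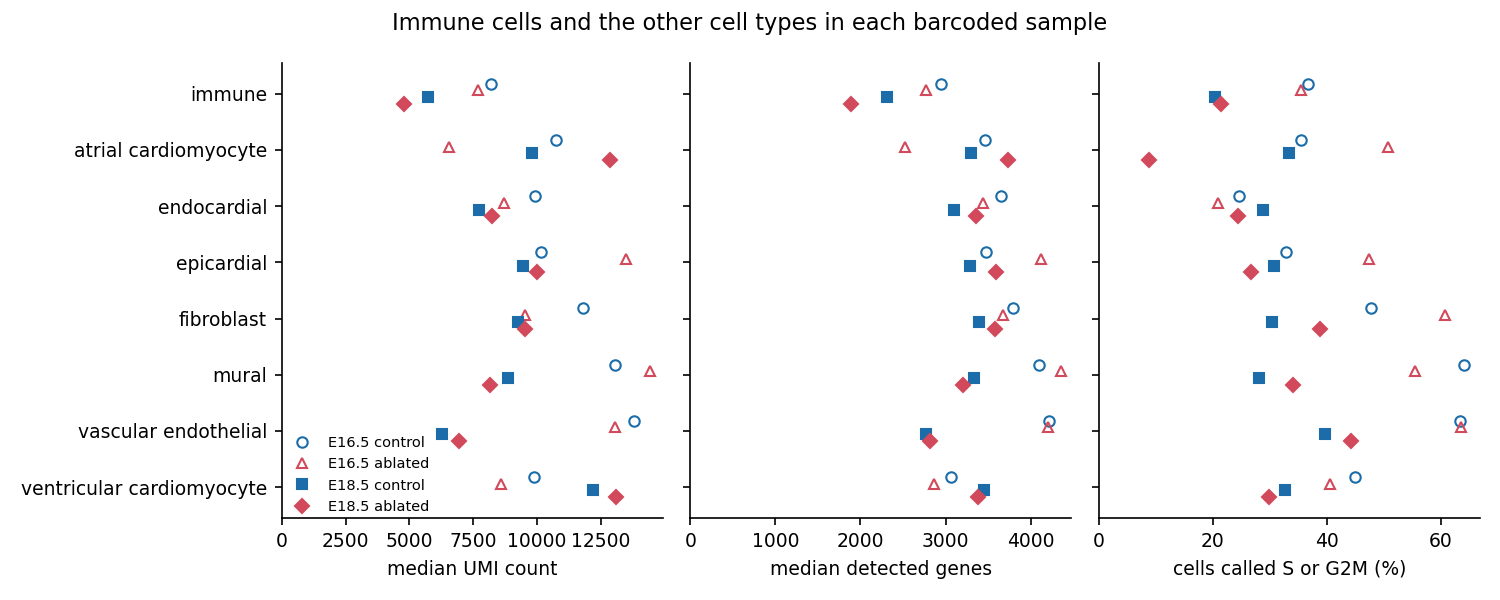
Median UMI count, median detected genes and share of cells called in S or G2M phase (%) for each cell type in the 4 barcoded samples of pool 1; each symbol is 1 sample, blue for control, red for ablated, open for E16.5 and filled for E18.5. The immune medians of 4783 to 8190 UMIs lie below those of most types of the same sample.

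The authors' cell cycle calls placed fewer immune cells in S or G2M phase than of most other types. By sample, 29 of 79 immune cells (36.7%, 26.1 to 48.3) were called in S or G2M in the E16.5 control, 16 of 45 (35.6%, 21.9 to 51.2) in the E16.5 ablated, 9 of 44 (20.5%, 9.80 to 35.3) in the E18.5 control and 26 of 121 (21.5%, 14.5 to 29.9) in the E18.5 ablated sample. Ablated minus control, the share differed by -1.15 points (-19.1 to 17.7) at the earlier and 1.03 points (-15.4 to 14.6) at the later stage, and these wide intervals do not show that the conditions were alike. Among immune cells with at least their median UMI count the values were 5.57 and 9.21 points, and with a score above 0.1 as the call they were 1.04 and -1.24, with intervals that held 0 in each case. Split by phase, the E16.5 difference was -11.7 points for S (-24.8 to 3.91) and 10.5 points for G2M (-4.52 to 27.1). The difference between stages was -16.3 points in controls (-32.0 to 1.97) and -14.1 points in ablated samples (-31.2 to 1.99), and both intervals held 0.

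Against the other types, the immune share in S or G2M was lower in 4 of 4 samples for 4 of the 7. The mean difference, immune minus other, was -24.2 ± 4.02 points from vascular endothelial cells, -16.9 ± 8.61 from mural cells, -15.8 ± 7.01 from fibroblasts and -8.44 ± 2.97 from ventricular cardiomyocytes (SD, n = 4; exact sign-flip permutation p = 0.125, adjusted p = 0.184 for each). Endocardial cells stood at 24.7% as a mean over samples against 28.6% in immune cells, and the direction was mixed, 2 samples each way. These calls depend on depth and are not taken as a measure of division, since equalising the depth of cells needs gene values.

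The calls differed among the immune clusters. In cluster 12, 12 of 114 cells were called in S or G2M (10.5%, 5.56 to 17.7), with 1 in S and 11 in G2M. In cluster 14 it was 33 of 94 (35.1%, 25.5 to 45.6), with 22 in S and 11 in G2M, and in cluster 26 it was 11 of 23 (47.8%, 26.8 to 69.4). Clusters 34, 37 and 35 had 11 of 24 (45.8%), 10 of 29 (34.5%) and 3 of 5. The intervals of clusters 12 and 14 did not overlap, and cluster 14 was also the deeper of the 2. Clusters 34, 37 and 35 had higher shares than cluster 12 at lower median UMI counts (5040.5, 3766 and 1055 against 5297.5). The part of depth was not tested. Cluster 12 lay below cluster 14 within each sample. The shares were 16.7% against 41.0% in the E16.5 control and 18.75% against 36.8% in the E16.5 ablated sample. At E18.5 they were 5.26% against 26.7% in the control and 7.27% against 28.6% in the ablated sample. The clusters were made from the expression of these cells, cycle genes possibly included, so this describes the clusters and is no test of them.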

How the data were processed

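The submitters' processing notes name GRCm38 and Cell Ranger 7.1.0; how cells were filtered, annotated and clustered is not given in the sources used here. The deposited tables hold, per the file headers, raw UMI counts and counts of detected genes per cell, the percent of mitochondrial UMIs, and the authors' S score and G2M score with a phase. Every deposited cell was called single by its sample barcode. Names, phases and integrated clusters were read from the integrated table of the authors. The copy ended inside a row; it held 4546 cells, all of pool 1 (62.7% of that pool), and the rest of the table, and immune cells of pool 2, were not analysed here. Gene values were not analysed here: no marker, gene list or count model was run, and no sequence is printed.

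Shares have exact binomial intervals at 95%, and differences have limits combined by the square-and-add method. These cover counting error only. Immune cells were set against each other type by two-sided exact sign-flip permutation over 4 barcoded samples, adjusted by the Benjamini-Hochberg method over 28 comparisons. The 4 samples differed in stage, genotype or both, so they came from different animals, though the number of hearts in each is not given. Their spread mixes stage, condition, animal and technical differences, which these p-values cannot tell apart. The items named were every immune cluster, every pool cluster with at least 50% of its named cells immune, and every other type; other pool clusters were named after their values were seen. Members and comparisons were chosen with earlier results of these data known. Alternatives were other denominators, a log2 scale with 0.1 points added, filters that drop 10% of each pool (the shallowest cells, the deepest, or those most mitochondrial), means, a score limit of 0.1, the pool cluster in place of names, and samples left out. Leaving out clusters 26 and 35, cells with a barcode in both pools, and the count of unnamed cells were chosen after seeing the data. The interval of a difference was checked on simulated counts, and the sign-flip test on fixed values with known answers. The simulated cell numbers were larger than those of the immune cells behind the cluster and phase shares, where the interval was not checked. Python 3.11.15, numpy 2.4.6, pandas 2.3.3, scipy 1.17.1 and matplotlib 3.10.9 were used.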

Additional observations from a re-analysis of the deposited data

Results flagged for a closer look

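For 7 measures of the immune cells the ablated minus control difference had opposite signs at E16.5 and E18.5. The search covered the shares of the 6 clusters, the ratios to the 7 other types, and the medians and phase shares of the immune cells. Some opposite signs among so many measures can arise from counting error and differences between samples alone. Each stage had 1 sample per condition, so the difference between stages was not tested. The difference for cluster 34 as a share of immune cells was -1.88 points at the earlier and 10.95 at the later stage, a change of 12.8 points. For cluster 26 it was 0.675 and -3.51 points, a change of -4.19. For the share in S or G2M it was -1.15 and 1.03 points, a change of 2.19; among cells with at least the median UMI count both values were above 0 (5.57 and 9.21), and with the score limit the signs were exchanged (1.04 and -1.24). For the median mitochondrial percent it was 0.0151 and -0.184 points, a change of -0.199; both values were below 0 with means (-0.574 and -0.352) and without clusters 26 and 35 (-0.0224 and -0.152). All of the intervals of the cluster and phase differences held 0 at each stage.

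On a log2 scale, the ratio of ablated to control for immune cells per atrial cardiomyocyte changed by 1.996 from the earlier to the later stage. The change was -1.69 for immune cells per epicardial cell and -1.58 per ventricular cardiomyocyte. The numbers of these other types differed widely between samples, with 1113 ventricular cardiomyocytes in the E16.5 control and 49 in the E18.5 control.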

How the results depend on the processing

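The immune share was higher in the ablated sample at both stages under each denominator and cell filter tried, with differences from 2.93 to 12.3 points at E16.5 and from 4.26 to 13.4 at E18.5. Among non-cardiomyocyte cells the differences were 9.82 and 10.3 points, and among cells that were neither cardiomyocytes nor fibroblasts 12.3 and 13.4. The E18.5 minus E16.5 difference was 2.99 points in ablated samples among non-cardiomyocytes, 9.99 in controls and 12.3 in ablated samples among non-fibroblast cells, 8.61 in controls among neither, and 3.38 in ablated samples for unnamed cells of pool cluster 6. The mean over stages ran from 3.52 to 6.36 points with samples left out, each of which drops a stage. Samples could not be paired between pools, because the cells used with cell type names were of pool 1 alone. Of the 12 cluster differences, 1 had an interval without 0, against 3 as shares of all named cells and 0 without the cells of lowest UMI count. The count of type and measure pairs of 1 direction was 15, with means or without the highest UMI counts 14, and from 15 to 18 with samples left out; that of phase comparisons was 4, and 4 to 5.

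Differences of medians between conditions moved with the setting. With means, the E16.5 differences were 226.04 UMIs, -77.6 genes, -0.574 mitochondrial points, -0.012 in S score and 0.0349 in G2M score; at E18.5 they were -1626 UMIs, -0.352 points, -0.0146 and 0.0503. Without cluster 35 the mitochondrial difference at E16.5 was 0.00208 and the S score difference at E18.5 was -0.000808. Without clusters 26 and 35 the E16.5 differences were -190.0 UMIs, -33.5 genes, -0.0224 points and -0.00627 in S score, and the E18.5 S score difference was -0.00838. Against other types, the mitochondrial difference changed sign for epicardial cells with means (0.246), for fibroblasts without the lowest UMI counts (0.11), for vascular endothelial cells without the highest UMI counts (-0.0466), and without clusters 26 and 35 (-0.0146). With samples left out in turn, it ran from -0.0373 to 0.152 for vascular endothelial and from -0.0306 to 0.226 for mural cells, and the S or G2M difference from atrial cardiomyocytes from -8.95 to 0.337; the values of opposite sign came without the E16.5 ablated sample. The causes were not tested. The numbers of immune cells, 44 to 121 per sample, limit what cluster and phase shares can show: the interval of the phase difference at E16.5 ran from -19.1 to 17.7 points.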
